A study of Mus musculus with 7 samples.

Results

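The genes described here are 9 members of the purinergic system, the signalling route that uses extracellular ATP and adenosine: the adenosine receptor genes Adora2a, Adora2b and Adora3, the ATP-gated channel genes P2rx4 and P2rx7, the P2Y receptor genes P2ry2 and P2ry14, and the ectonucleotidase genes Entpd1 and Nt5e. They were chosen by name for their place in the pathway, and each had a row among the 16047 gene rows of the table. The transcriptome was that of neutrophils sorted from mouse livers 24 h after acetaminophen-induced liver injury (AILI). All animals were male C57BL/6 mice of 8 to 12 weeks that received acetaminophen (APAP) at 300 mg/kg. In the mice behind 3 libraries (MC-21 replicates 2 to 4) circulating Ly6Chi monocytes were ablated with MC-21, a monoclonal antibody against the chemokine receptor CCR2, given as 400 µL of conditioned medium holding 29 µg/mL from 12 h before the challenge and then every 24 h. The other 4 libraries (PBS replicates 5 to 8) came from controls given PBS in place of the antibody. Cells of the CD11b+ Ly6Clo CX3CR1-GFP- Ly6G+ gate were collected, 50000 per liver. The gate reads a CX3CR1 reporter, while the strain label names C57BL/6 without that allele. No library came from an uninjured liver, so the values compare injured livers with and without the antibody and do not describe the injury itself.

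As background, dying hepatocytes release ATP, which neutrophils sense through ATP-gated P2X channels and G protein-coupled P2Y receptors. The ectonucleotidase CD39, encoded by Entpd1, removes phosphates from ATP and ADP to leave AMP, and CD73, encoded by Nt5e, turns AMP into adenosine. Adenosine then acts on its own receptors, of which those encoded by Adora2a and Adora2b raise cyclic AMP and are known to restrain neutrophil functions, while that encoded by Adora3 couples to inhibitory G proteins. The question addressed was whether the neutrophils of monocyte-depleted livers differed from those of control livers in the machinery that senses, degrades and answers these nucleotides.

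Values were RPKM, that is, read numbers scaled to the mapped reads of the library and to transcript length in kilobases, from a library type that reads transcript 3′ ends. In such a library the division by length lowers long transcripts, and this limits the comparison of levels between genes. The low values stepped in whole reads, which placed the depth of the libraries at 1.59 to 3.96 in units of 1e6 mapped reads, with MC-21 replicate 3 the shallowest and PBS replicate 8 the deepest. Differences are given as MC-21 minus PBS on the log2(RPKM + 1) scale, from limma across the 9594 genes averaging 1 RPKM or more, with Benjamini-Hochberg adjustment over all of them. The median difference of these genes was -0.14, and 69.4% of them lay below 0, so a member at -0.14 was in the middle of the table. Among 11 neutrophil markers S100a9 was the most abundant (15925 ± 3601 RPKM in PBS and 21655 ± 3451 in MC-21, SD, n = 4 and 3). The least abundant was Ltf (5.53 and 2.55 RPKM). At an unadjusted p under 0.05 in limma, 3 of the 11 were higher in MC-21, against 3.59% of all genes tested. Camp alone was lower, against 11.2%, and none of the 11 passed adjustment. The gate also held other transcripts. The summed level of 6 endothelial markers was 1027 to 2320 RPKM in PBS libraries and 1176 to 2101 in MC-21 libraries. That of 14 monocyte and macrophage markers was 597 to 722 and 310 to 389 RPKM, without overlap. In bulk RNA, fewer cells of a type and less RNA per cell cannot be told apart.

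Of the 9 genes, Entpd1 had the highest level, and P2ry14 and Adora3 had the lowest. Entpd1 stood at rank 89.8% of all rows by mean RPKM, P2rx4 at 80.4%, P2ry2 at 73.7%, Adora2a at 54.9%, Nt5e at 49.8%, P2rx7 at 41.3%, Adora2b at 39.9% and P2ry14 at 19.2%. Between neighbours in this order, Entpd1 exceeded P2rx4 in 7 of 7 libraries and P2ry2 exceeded Adora2a in 7 of 7, with no overlap of the ranges. P2rx4 exceeded P2ry2 in 6 of 7 libraries. Adora2a was above Nt5e in 5 libraries, Nt5e above P2rx7 in 6 and P2rx7 above Adora2b in 4, and the ranges of these neighbours overlapped. Adora2b, with a mean of 0.974 RPKM, was above P2ry14, with 0.117 RPKM, in 6 libraries, and their ranges overlapped through MC-21 replicate 2. P2ry14 was above Adora3 in 4 libraries, and the level of Adora3 is uncertain for a reason given with that gene.

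**Figure D1:**
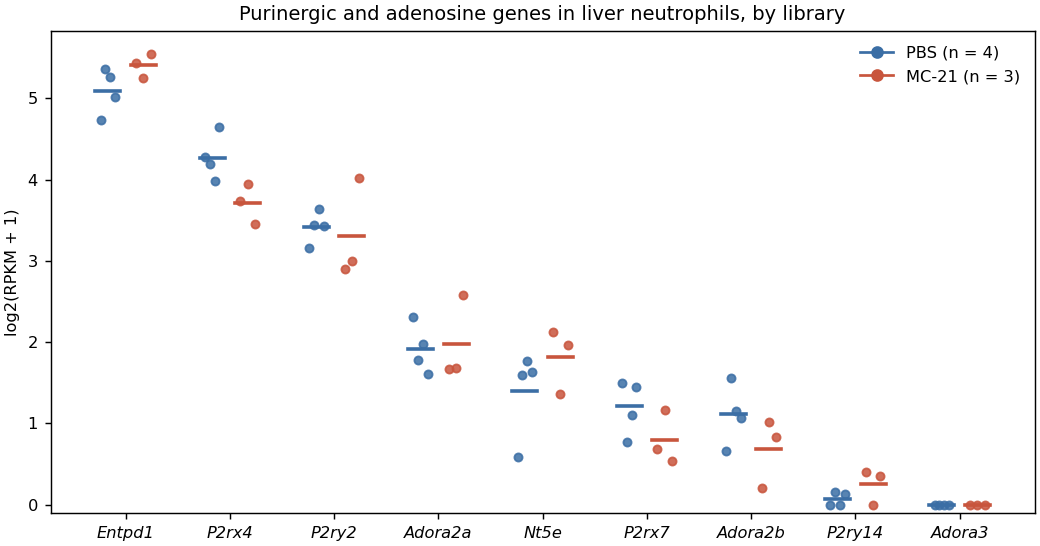
Level of the 9 genes in each library, as log2(RPKM + 1), ordered by mean. Points are libraries, horizontal bars are means of the log2 values, blue is PBS (n = 4) and red is MC-21 (n = 3). The 3 MC-21 points of P2rx4 lie below all 4 PBS points, and Adora3 lies at 0 in every library.

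The 6 members averaging 1 RPKM or more entered the test, and none passed it: 0 of 6 had an adjusted p under 0.05 in limma, against 0.625% of all genes tested. At an unadjusted p under 0.05, 1 of 6 was lower (P2rx4, background 11.2%) and 0 of 6 were higher (background 3.59%). Centring each library on its own median moved this background to 4.46% lower and 7% higher, and then 0 of 6 were lower and 1 of 6 was higher (Entpd1). With the cutoffs the study used, an unadjusted p of 0.05 and a difference of at least 2-fold, 0 of 6 were called, against 2.7% of all genes. In 1 of 6, PBS and MC-21 libraries showed no overlap, against 13.3% of all genes. With 6 genes tested, shares of this size are not distinguished from the background. The members' median log2 difference was -0.03, with 3 of 6 below 0.

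Adora2a, on chromosome 10 (plus strand, 74779688 to 74797533 in mm9), encodes the high-affinity adenosine receptor that couples to the stimulatory G protein. It measured 3.96, 2.44, 2.92 and 2.05 RPKM in PBS replicates 5 to 8 and 2.18, 2.22 and 4.96 RPKM in MC-21 replicates 2 to 4. The highest and nearly the lowest value of the 7 thus both came from MC-21 libraries, and the groups overlapped. Means were 2.84 ± 0.826 RPKM (SD, n = 4) and 3.12 ± 1.59 RPKM (SD, n = 3), and the log2 difference was 0.06 with a standard error of 0.28 and a 95% interval of -0.57 to 0.69 (limma adjusted p = 0.944). It became -0.24 without MC-21 replicate 4 and -0.05 without PBS replicate 8, so its sign was not fixed. The values rested on 10 to 39 reads per library, 170 in all.

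Adora2b, on chromosome 11 (plus strand, 62062486 to 62079955), encodes the low-affinity adenosine receptor, which responds when adenosine is high. Its mean of 0.974 RPKM lay just under the filter, so it had no place in the main test. It was 0.588, 1.95, 1.22 and 1.10 RPKM in PBS replicates 5 to 8 and 0.152, 1.02 and 0.780 RPKM in MC-21 replicates 2 to 4. The groups overlapped, and the means were 1.22 ± 0.564 RPKM (SD, n = 4) and 0.651 ± 0.449 RPKM (SD, n = 3, exact two-sided permutation test p = 0.257). Behind them stood 29 reads in the 4 PBS libraries and 8 in the 3 MC-21 libraries, that is 2.28 reads per 1e6 mapped (exact Poisson 95% interval 1.53 to 3.28) and 1.01 (0.435 to 1.98), intervals that cover counting error only. Without the filter, its log2 difference was -0.43 (limma adjusted p = 0.607).

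Adora3 was at 0 to the third decimal of an RPKM in every library, at values that correspond to no whole read, as in 96 rows of the table that lay above 0 but under 0.001 RPKM in all 7 libraries. No direction was read from them. In mm9 the symbol covers 2 gene identifiers on chromosome 3 (plus strand, 105673776 to 105711846 and 105673825 to 105726954) that share 105 exonic bases. Tmigd3, an immunoglobulin domain gene of the same locus, had its own row and was looked at after its values were seen. That annotation held no transcript under the name Tmigd3, so whether either identifier stands for it could not be told. Tmigd3 measured 1.39, 1.16, 1.16 and 1.17 RPKM in PBS replicates 5 to 8 and 1.62, 1.94 and 2.49 RPKM in MC-21 replicates 2 to 4, with every MC-21 library above every PBS library. Its log2 difference was 0.43 (standard error 0.20, limma adjusted p = 0.355, exact two-sided permutation p = 0.0286, the smallest that 35 arrangements allow) over 81 reads in all. The Adora3 values, from 1.15e-06 RPKM in PBS replicate 6 to 3.11e-06 in MC-21 replicate 4, ranked all 7 libraries in the same order as Tmigd3. They are therefore not read as a measurement separate from Tmigd3. How reads of this locus were assigned to the 2 rows was not tested, so the level of Adora3 is uncertain.

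P2rx4 and P2rx7 encode trimeric ion channels that open when ATP binds, the first at low ATP and the second at the high ATP reached near damaged cells. They are neighbours on chromosome 5 (plus strand), P2rx7 from 123093920 to 123141441 and P2rx4 from 123157593 to 123179747, with 16151 bases between them. The sequence at the start of P2rx4 is shown because this was the member with the lowest p, together with both starts of Entpd1, the most abundant member. Each window holds 250 bases before and 50 after an annotated start (RefSeq, mm9, plus strand), and capitals mark TGACG, read on either strand, the core of the element bound by CREB, the transcription factor downstream of cyclic AMP. The first window is chr5:123157303-123157602, and the Entpd1 windows are chr19:40686606-40686905 and chr19:40734010-40734309.
P2rx4: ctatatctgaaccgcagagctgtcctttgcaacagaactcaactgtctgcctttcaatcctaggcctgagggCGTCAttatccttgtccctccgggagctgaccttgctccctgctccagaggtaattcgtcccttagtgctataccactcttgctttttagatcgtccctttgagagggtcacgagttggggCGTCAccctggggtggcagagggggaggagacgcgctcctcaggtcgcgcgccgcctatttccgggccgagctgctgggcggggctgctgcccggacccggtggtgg
Entpd1 first start: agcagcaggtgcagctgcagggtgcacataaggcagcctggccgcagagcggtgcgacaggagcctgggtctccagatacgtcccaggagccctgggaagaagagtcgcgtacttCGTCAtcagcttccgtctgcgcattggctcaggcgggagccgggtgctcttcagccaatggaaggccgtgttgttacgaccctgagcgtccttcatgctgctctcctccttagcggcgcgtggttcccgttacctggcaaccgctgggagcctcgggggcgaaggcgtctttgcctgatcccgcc
Entpd1 second start: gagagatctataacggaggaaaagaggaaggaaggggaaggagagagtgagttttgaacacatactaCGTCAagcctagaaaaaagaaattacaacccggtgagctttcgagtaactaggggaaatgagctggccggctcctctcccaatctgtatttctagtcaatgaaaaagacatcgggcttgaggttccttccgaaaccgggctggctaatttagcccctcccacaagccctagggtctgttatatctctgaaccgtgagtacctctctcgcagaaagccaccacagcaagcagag
The P2rx4 window held 2 matches and each Entpd1 window 1, all as CGTCA on the printed strand. Among all 32851 promoters of the table, 20.8% held TGACG on either strand, and 1.79% held the full palindrome TGACGTCA, of which it is part and which no member's window held. Promoters were matched for 8 of the 9 genes, and those of the other members held no TGACG. A match describes letters in a window and is not evidence of binding.

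P2rx4 measured 18.3, 17.2, 14.7 and 24.0 RPKM in PBS replicates 5 to 8 and 12.3, 14.4 and 9.98 RPKM in MC-21 replicates 2 to 4. Every MC-21 library was below every PBS library, though the highest MC-21 value, 14.4, was close to the lowest PBS value, 14.7. Means were 18.6 ± 3.92 RPKM (SD, n = 4) and 12.2 ± 2.22 RPKM (SD, n = 3). The log2 difference was -0.56 with a standard error of 0.20 and a 95% interval of -1.01 to -0.10, a 1.47-fold lower fitted level in MC-21 neutrophils. The unadjusted p was 0.0213 and the adjusted p was 0.265 in limma, and the exact two-sided permutation test gave p = 0.0571, so the difference did not pass correction over all genes. When each library was centred on its own median, the difference was -0.39 and the groups overlapped. It rested on 655 reads in the PBS and 256 reads in the MC-21 libraries.

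P2rx7, the channel best known for driving release of interleukin-1 beta, was much lower. It measured 1.84, 0.708, 1.16 and 1.74 RPKM in PBS replicates 5 to 8 and 0.609, 1.25 and 0.456 RPKM in MC-21 replicates 2 to 4. One of the MC-21 libraries, replicate 3, lay among the PBS values, so the groups overlapped. The log2 difference was -0.41 with a standard error of 0.27 and a 95% interval of -1.01 to 0.19 (limma adjusted p = 0.511), on 7 to 38 reads per library. The difference was -0.77 with a pseudocount of 0.1 and -0.19 with quantile normalization.

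The P2Y receptor encoded by P2ry2 answers ATP and UTP and is known for its part in neutrophil chemotaxis. The gene lies on chromosome 7 (minus strand, 108145086 to 108160505) and measured 7.90, 9.89, 11.4 and 9.80 RPKM in PBS replicates 5 to 8. In MC-21 replicates 2 to 4 it measured 6.48, 6.97 and 15.2 RPKM, so MC-21 libraries held both the lowest values and the highest. Means were 9.75 ± 1.43 RPKM (SD, n = 4) and 9.57 ± 4.93 RPKM (SD, n = 3), with a log2 difference of -0.11, a standard error of 0.28 and a 95% interval of -0.73 to 0.51 (limma adjusted p = 0.880). Leaving out MC-21 replicate 4 moved the difference to -0.47, and leaving out MC-21 replicate 2 moved it to 0.09. The spread within the MC-21 group was thus larger than the difference between the groups.

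P2ry14 encodes the receptor for UDP-glucose and lies on chromosome 3 (minus strand, 58918548 to 58934546) inside the span of Med12l, beside P2ry13 and P2ry12. Its PBS replicates 5 to 8 held 0, 1, 0 and 1 reads, and MC-21 replicates 2 to 4 held 3, 0 and 2. A count of 0 allows up to 0.422 RPKM in PBS replicate 5, 0.439 in PBS replicate 7 and 0.733 in MC-21 replicate 3, above every value measured for the gene. No difference between the groups could be seen at 7 reads in all.

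**Figure D2:**
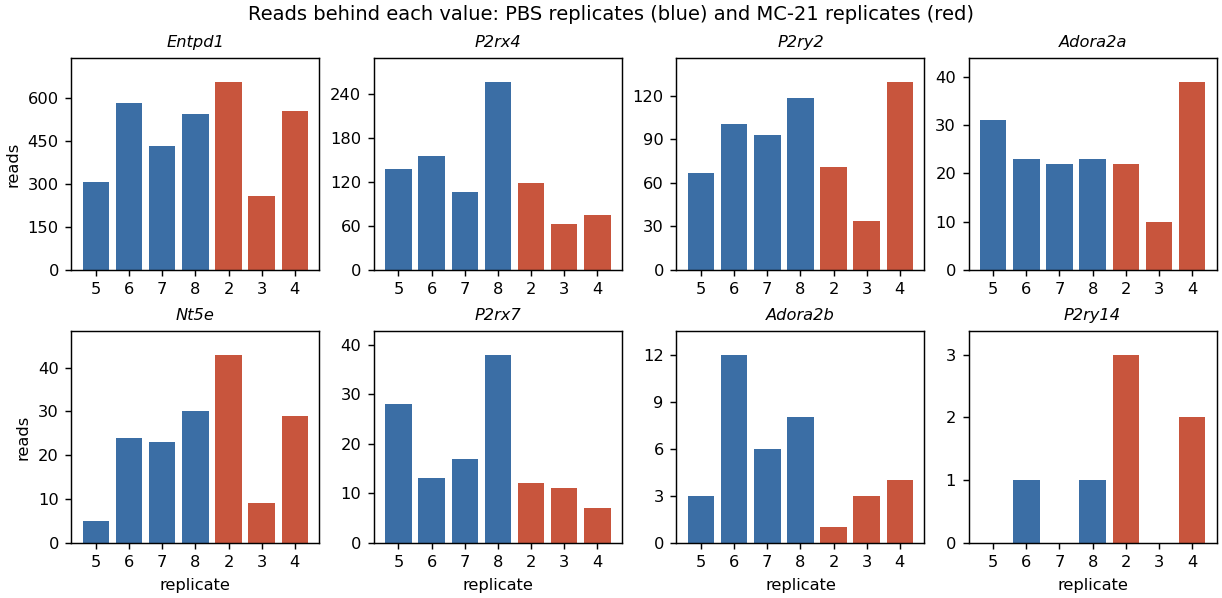
Reads recovered from the RPKM values of 8 genes in each library. Each bar is 1 library, labelled by replicate on the horizontal axis, with the number of reads on the vertical axis, which differs between panels. Entpd1 rests on 258 to 659 reads per library and P2ry14 on 0 to 3.

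Entpd1, on chromosome 19 (plus strand, 40686856 to 40816092), measured 25.5, 40.1, 37.3 and 31.4 RPKM in PBS replicates 5 to 8 and 42.1, 37.0 and 45.7 RPKM in MC-21 replicates 2 to 4. The highest values were those of MC-21 replicates 4 and 2, the lowest was that of PBS replicate 5, and MC-21 replicate 3 fell among the PBS values. Means were 33.6 ± 6.50 RPKM (SD, n = 4) and 41.6 ± 4.38 RPKM (SD, n = 3), and the log2 difference was 0.32 with a standard error of 0.18 and a 95% interval of -0.09 to 0.73 (limma adjusted p = 0.461). Centring each library on its median raised the difference to 0.48, with an unadjusted p of 0.0343 and an adjusted p of 0.370, and leaving out PBS replicate 5 lowered it to 0.19. The interval holds both no difference and the size seen for P2rx4 in the other direction.

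Nt5e, on chromosome 9 (plus strand, 88222447 to 88266927), encodes the enzyme that acts after CD39 and was far less abundant. It measured 0.505, 2.01, 2.42 and 2.12 RPKM in PBS replicates 5 to 8 and 3.36, 1.58 and 2.91 RPKM in MC-21 replicates 2 to 4. PBS replicate 5 stood lowest with 5 reads, and the groups overlapped through MC-21 replicate 3 with 9 reads. The log2 difference was 0.42 with a standard error of 0.33 and a 95% interval of -0.31 to 1.15 (limma adjusted p = 0.591). Without PBS replicate 5 it was 0.15, and with a pseudocount of 0.1 it was 0.67. The 2 genes that turn ATP into adenosine thus both had values above 0 and the 2 channel genes values below 0, and neither pair held a call. Of all genes tested 69.4% lay below 0, and the intervals of P2rx7, Entpd1 and Nt5e included 0.

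Of 44 other purinergic genes listed by role, 40 had a row and 24 entered the test. None of the 24 had an adjusted p under 0.05 in limma, 2 were lower (8.33%, background 11.2%) and 2 higher (8.33%, background 3.59%) at an unadjusted p under 0.05, and their median log2 difference was -0.11. With median centring 1 was lower, Slc29a1 no longer being counted, and 2 were higher. With quantile normalization 2 were lower (background 5.24%), Slc29a1 among them, and 2 higher (background 5.99%). The groups did not overlap in 3 of the 24 (12.5%, background 13.3%). With median centring this held for 1 of the 24 (4.17%, background 11.3%). P2ry6 encodes the receptor for UDP. It measured 7.36, 14.6, 14.1 and 9.74 RPKM in PBS replicates 5 to 8 and 6.13, 3.93 and 6.94 RPKM in MC-21 replicates 2 to 4, without overlap. Its log2 difference was -0.88 with a standard error of 0.27 (limma unadjusted p = 0.00887, adjusted p = 0.196). P2ry13, the ADP receptor gene with the highest level in that role, was 13.1 ± 5.31 RPKM in PBS and 17.6 ± 8.81 RPKM in MC-21 (SD, n = 4 and 3, limma adjusted p = 0.698). Among the other channel and adenosine receptor genes the highest were P2rx1 (0.552 and 0.597 RPKM in PBS and MC-21) and Adora1 (0.0578 and 0.223 RPKM), both under the filter.

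The genes that move and break down nucleosides gave values on both sides. Slc29a1 encodes the equilibrative transporter that carries adenosine across the membrane. It measured 67.9, 55.7, 50.9 and 113 RPKM in PBS replicates 5 to 8 and 41.5, 43.4 and 46.5 RPKM in MC-21 replicates 2 to 4, all below the PBS values (log2 difference -0.63, limma adjusted p = 0.302). Pnp encodes purine nucleoside phosphorylase, which cleaves inosine. It measured 72.5, 82.9, 55.6 and 62.3 RPKM in PBS and 83.5, 106 and 96.7 RPKM in MC-21 libraries, without overlap (log2 difference 0.49, limma adjusted p = 0.251). Entpd3, a further ectonucleotidase gene, measured 16.97, 8.18, 13.5 and 13.2 RPKM in PBS and 14.8, 19.8 and 47.3 RPKM in MC-21 libraries. MC-21 replicate 4 stood far above the rest, and the groups overlapped (log2 difference 0.89, limma adjusted p = 0.318). Without that library the difference was 0.42. Slc17a9, the vesicular nucleotide transporter that loads ATP for release, had the highest level in its role with means of 9.89 and 8.02 RPKM (log2 difference -0.26, limma adjusted p = 0.630).

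**Figure D3:**
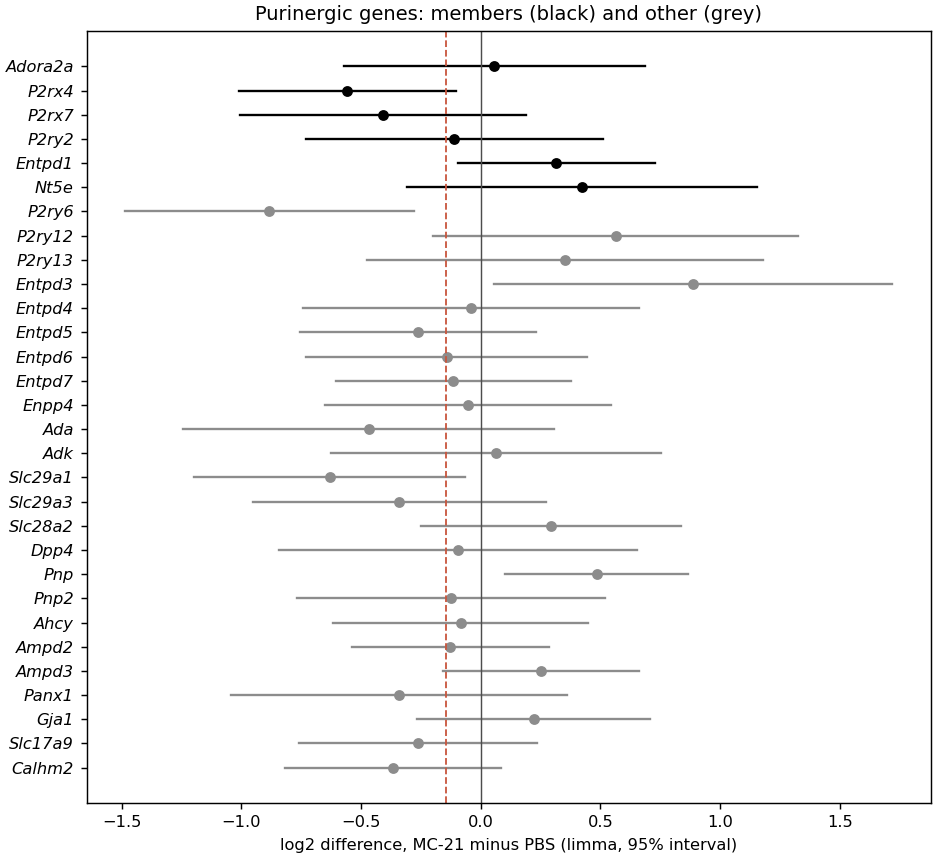
Log2 difference, MC-21 minus PBS on the log2(RPKM + 1) scale, of the 6 tested members (black) and 24 other purinergic genes (grey), with limma 95% intervals. The solid line marks 0 and the dashed line the median of all genes tested, -0.14. The interval of P2rx4 lies below 0 and no gene shown passed adjustment over all genes.

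Downstream of the adenosine receptors, 26 genes of the cyclic AMP machinery had rows and 18 entered the test. None had an adjusted p under 0.05 in limma, 3 were lower (16.7%, background 11.2%) and 1 higher (5.56%, background 3.59%) at an unadjusted p under 0.05, and the median log2 difference was -0.24. With median centring 1 was lower, Rapgef3, and 1 higher, Pde4b, while Adcy6 and Adcy7 were no longer counted. The groups did not overlap in 6 of the 18 (33.3%, background 13.3%), and with median centring in 4 of the 18 (22.2%, background 11.3%). Adcy7, an adenylyl cyclase gene prominent in blood cells, was 3.12 ± 0.651 RPKM in PBS and 1.80 ± 0.295 RPKM in MC-21 libraries (SD, n = 4 and 3), without overlap (log2 difference -0.55, limma adjusted p = 0.273). Adcy6, a further cyclase gene, had means of 4.02 and 1.96 RPKM and a log2 difference of -0.73, with overlap (limma adjusted p = 0.284). Rapgef3, which encodes the exchange factor EPAC1 that cyclic AMP activates, measured 12.5, 10.2, 10.6 and 15.1 RPKM in PBS and 6.94, 9.34 and 6.75 RPKM in MC-21 libraries, again without overlap (log2 difference -0.59, limma adjusted p = 0.235). Pde4b, a phosphodiesterase gene whose product degrades cyclic AMP, lay on the other side. It measured 16.8, 42.5, 43.0 and 23.7 RPKM in PBS and 72.6, 51.5 and 55.8 RPKM in MC-21 libraries. Its log2 difference was 0.99 with a standard error of 0.32 (limma adjusted p = 0.214). The most abundant genes of each role were Gnai2 (674 and 601 RPKM in PBS and MC-21), Adcy4 (11.7 and 7.44), Pde2a (80.7 and 58.3) and Prkar1a (61.7 and 51.7), none with an unadjusted p under 0.05 in limma.

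**Figure D4:**
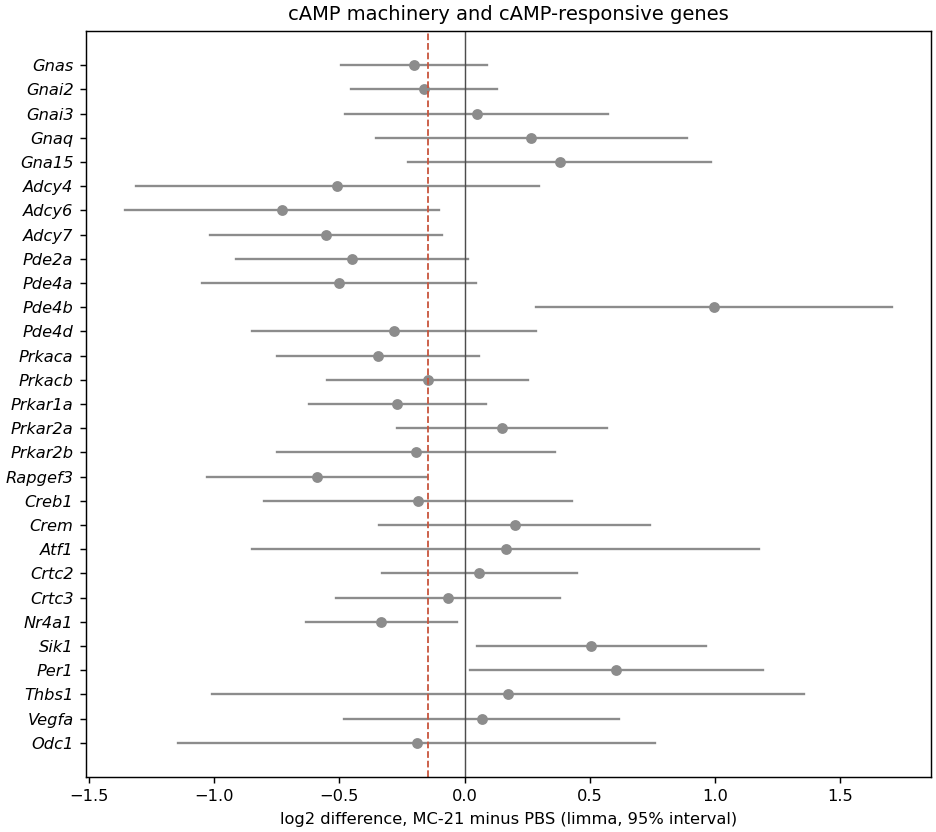
Log2 difference, MC-21 minus PBS on the log2(RPKM + 1) scale, of the tested genes of the cyclic AMP machinery and of cyclic AMP-responsive genes, with limma 95% intervals. The solid line marks 0 and the dashed line the median of all genes tested, -0.14. Pde4b had the highest difference at 0.99 and Adcy6 the lowest at -0.73.

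**Figure D5:**
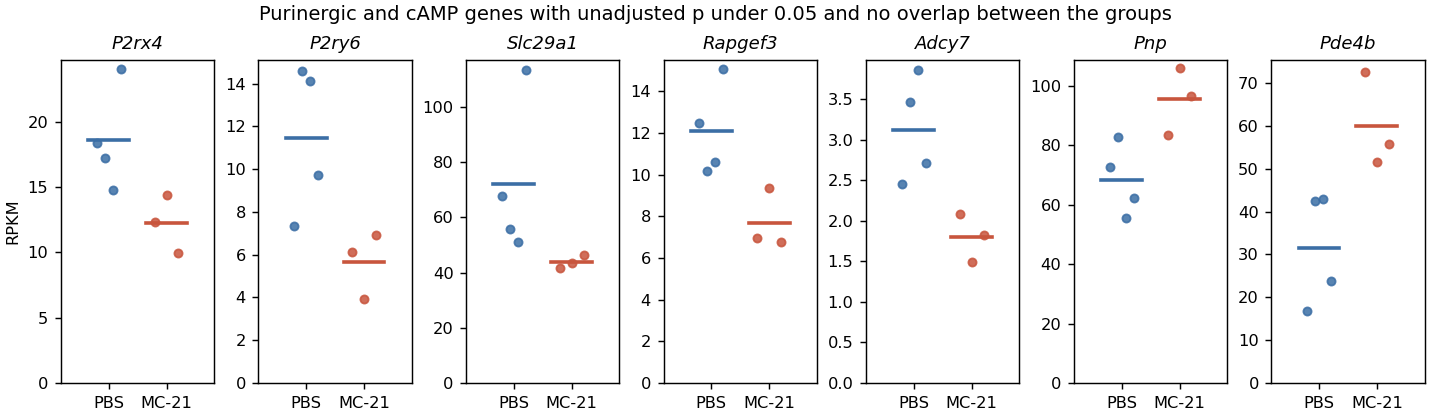
RPKM in each library of the purinergic and cyclic AMP genes with an unadjusted p under 0.05 whose groups did not overlap. Over all genes tested, the groups of 13.3% did not overlap. Points are libraries, bars are means, and each panel has its own vertical axis from 0. MC-21 libraries were below PBS libraries for P2rx4, P2ry6, Slc29a1, Rapgef3 and Adcy7 and above them for Pnp and Pde4b, and none passed adjustment over all genes.

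Of 15 cyclic AMP-responsive genes, 11 entered the test and none had an adjusted p under 0.05 in limma, with 1 lower (9.09%, background 11.2%) and 2 higher (18.2%, background 3.59%) at an unadjusted p under 0.05. With median centring 0 were lower and 2 higher, and the difference of Nr4a1 was then -0.17. With quantile normalization 1 was lower (background 5.24%) and 2 higher (background 5.99%), and the difference of Nr4a1 was -0.38. Nr4a1, an immediate early gene with the highest level of the list, was 1017 ± 123 RPKM in PBS and 804 ± 58.4 RPKM in MC-21 (SD, n = 4 and 3, log2 difference -0.33, limma adjusted p = 0.306). Sik1, a kinase gene induced by cyclic AMP, had means of 13.4 and 19.8 RPKM (log2 difference 0.51, limma adjusted p = 0.306). Per1, a clock gene that CREB also drives, had means of 24.1 and 36.7 RPKM (log2 difference 0.61, limma adjusted p = 0.327). The groups of all 3 overlapped.

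For the genes that act below P2X7, 6 of 7 entered the test. None passed at an adjusted or an unadjusted p of 0.05 in limma (unadjusted background 11.2% lower and 3.59% higher). With median centring 1 of 6 was higher (background 7%), and none had an adjusted p under 0.05. That gene was Nlrp3, with a log2 difference of 0.48 (limma unadjusted p = 0.0344). Il1b, the cytokine whose release the channel drives, was 7000 ± 880 RPKM in PBS and 7416 ± 724 RPKM in MC-21 (SD, n = 4 and 3, log2 difference 0.09, limma adjusted p = 0.799). The groups overlapped.

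The genes whose levels followed those of the members most closely over the 7 libraries were sought among 5859 genes averaging 5 RPKM or more, by Pearson's r of log2(RPKM + 1), as a description in which all points share their libraries and their groups. For P2rx4 they were Taf6 (r = 0.996), Dgkd (r = 0.990) and Oraov1 (r = 0.987). For P2ry2 they were Tirap (r = 0.966), Safb2 (r = 0.959) and Crtc3 (r = 0.939), the last a coactivator of CREB. For Entpd1 they were Gpr35 (r = 0.990), Ncf4 (r = 0.980) and Pycard (r = 0.974).

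The marker sums that differed between the groups were lower in MC-21, as P2rx4 and P2ry6 were. In PBS replicates 5 to 8 the monocyte and macrophage sum was 597.4, 695.5, 722.0 and 693.0 RPKM. P2rx4 was 18.3, 17.2, 14.7 and 24.0 RPKM there, and P2ry6 was 7.36, 14.6, 14.1 and 9.74 RPKM. No relation to the sum was read from 4 libraries. Of 14 monocyte and macrophage markers, 5 fell at an adjusted p under 0.05 in limma (background 0.625%) and 9 did not overlap (background 13.3%), all lower in MC-21, with a median log2 difference of -0.998. The 5 calls became 0 with no filter and 2 without PBS replicate 7 or without PBS replicate 8, and without any other library 3 to 5. C1qb, a complement gene of macrophages, fell from 155 ± 19.6 to 59.6 ± 6.44 RPKM (SD, n = 4 and 3, limma adjusted p = 0.00816). Other markers of the list, among them Adgre1 (log2 difference 0.02), Mrc1 (-0.18) and Ly6c2 (-0.25), overlapped between the groups. The summed B cell markers were 10.7 to 29.9 RPKM in PBS and 6.14 to 9.73 in MC-21, without overlap. The summed platelet markers were 88.7 to 256 and 47.8 to 74.3 RPKM, also without overlap, but this sum was mostly Pf4 (128 ± 79.6 and 47.5 ± 12.3 RPKM, SD, n = 4 and 3, limma adjusted p = 0.194). The platelet list had a median log2 difference of -0.01, and Itga2b was above the PBS values in every MC-21 library (2.79 ± 0.531 and 4.03 ± 0.410 RPKM, limma adjusted p = 0.362). No marker with a row was at 0 in every library, but only 3 of 6 eosinophil markers and 4 of 5 B cell markers had a row. The part of such cells in the levels of P2rx4, P2ry6, Slc29a1, Rapgef3 and Adcy7 was not tested. Nor was the part of these or of endothelial cells in the levels of P2rx7, Entpd1, Adcy4, Pde2a and the other named genes. The summed T and NK cell, Kupffer cell, dendritic cell, eosinophil, endothelial, hepatocyte and neutrophil markers overlapped between the groups.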

How the data were processed

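Neutrophils were profiled by 3′ RNA-seq in 7 libraries. According to the study's methods and the submitters' processing notes, reads were aligned to mm9 with HISAT 0.1.5, handled with SAMtools and quantified in Partek Genomics Suite 6.6; the gene annotation is not given in the sources used here. The authors deposited RPKM values, normalized to mapped reads and transcript length, and no counts. Reads per library were recovered from the steps of low values (tolerance 0.03 read) and used only for depth and Poisson intervals. limma 3.58.1 (R 4.3.3, eBayes with trend) was fitted to log2(RPKM + 1) for genes averaging 1 RPKM or more, with group as the only term. It stands in for the study's unpaired two-tailed test with a 2-fold cutoff. Single genes were also compared by an exact two-sided permutation test of the mean difference. The labels do not say that each library came from its own animal, so p-values measure only the spread between these libraries, which may be technical. Genes named beside the 9 were, by rule, those of each listed role with an unadjusted p under 0.05 or the highest mean, and the 3 most alike each member above 5 RPKM. The members and lists were chosen with earlier results of these data known. Positions are from GENCODE on mm9 and promoters from RefSeq. The alternatives were a pseudocount of 0.1, no filter, a mean of at least 5 RPKM, median centring, quantile normalization, eBayes without trend, and each library left out. The fit was also run on simulated normal values. The changes added there were larger than any member's difference, so that run does not bear on differences of the members' size.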

Additional observations from a re-analysis of the deposited data

How the results depend on the processing

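The count of members with an adjusted p under 0.05 stayed at 0 in limma under every alternative run, as did the counts for the other purinergic genes and the cyclic AMP machinery. Without one library the number of genes called among all tested lay between 9, when PBS replicate 8 was left out, and 102, when PBS replicate 6 was, against 60 with all 7, and it was 4 with no filter. The number past the study's cutoffs in limma, 259, became 433 with a pseudocount of 0.1 and 153 at a mean of at least 5 RPKM. The count of members whose groups did not overlap, 1, became 2 with no filter (9.87% of all genes then did not overlap). The second was Adora3 at its values under 0.001 RPKM, which ranked the libraries as Tmigd3 did. The count became 0 with median centring and 0 with quantile normalization (11.3% and 11.1%). Without one library it ranged from 1 to 4, with 4 of 6 without MC-21 replicate 3 (23.3% of all genes), 2 of 6 without PBS replicate 5 (18.1%) and 2 of 7 without MC-21 replicate 4 (20.9%), since fewer libraries overlap less often by construction. The difference of P2ry2 turned to 0.054 with median centring and 0.032 with quantile normalization, and lay between -0.47 and 0.092 when libraries were left out. That of Adora2a lay between -0.24 and 0.21 when libraries were left out. The cause of these changes was not tested, beyond the fewer genes or libraries that each alternative holds. P2rx4 kept its sign under every alternative, with differences of -0.67 to -0.39 and adjusted p from 0.234 to 0.509. No paired analysis was possible because the groups share no replicate number. Adora2b, P2ry14, P2rx7, Nt5e and Adora2a each rest on under 200 reads in all; how far their spread is counting error was not tested.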
